A study of Mus musculus with 8 samples.

Results

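The integrated stress response set described here held 10 genes, chosen by gene name from the 54532 genes counted: *Atf4* and *Atf5*, the partner factor *Ddit3* (CHOP), the regulators *Trib3* and *Nupr1*, the glutathione-degrading enzyme *Chac1*, the amino acid synthesis enzymes *Asns*, *Psat1* and *Phgdh*, and the cystine importer *Slc7a11*. All 10 were found by name, in 11 entries because *Ddit3* is listed 2 times, and all 10 had enough reads to be tested among 17998 genes. RNA was measured by bulk RNA-seq of whole mouse retina in 4 *Mettl3*-CKO samples and 4 control samples. *Mettl3*-CKO mice carried *Six3-Cre* together with 2 floxed copies of *Mettl3*, the catalytic core of the complex that writes m6A on RNA, while the genotype of the controls beyond that name is not given in the sources used here. *Six3-Cre* acts in retinal progenitors, and the study examined the deletion in the central retina. Whole retina also holds vascular cells and microglia, which do not arise from these progenitors. The labels give the age as postnatal day 7 and the methods as day 6. Nothing in the labels says that the replicates came from separate animals or litters, so the p-values below measure the spread between these samples.

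In the integrated stress response, kinases that sense amino acid shortage, misfolded protein in the endoplasmic reticulum, double-stranded RNA or missing heme phosphorylate the translation factor eIF2. Most translation then slows, while the mRNA of ATF4 is translated more because of short reading frames upstream of its coding sequence. ATF4 pairs with C/EBP proteins and other bZIP factors and switches on genes for amino acid synthesis and import, for glutathione turnover and, when stress lasts, for cell death through CHOP. In the retina, serine made by PHGDH, PSAT1 and PSPH comes largely from Müller glia. RNA levels of *Atf4* do not show how much ATF4 protein was made, and neither protein nor eIF2 phosphorylation was analysed here.

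Of the 10 genes, 1 rose in *Mettl3*-CKO retinas and 0 fell at an adjusted p under 0.05 in edgeR's quasi-likelihood test. The gene that rose was *Psat1*, by 1.39-fold (95% interval 1.21 to 1.59, n = 4 per group). Of all genes tested, 6.49% were called higher and 4.05% lower, so 1 in 10 is close to the background share. At an unadjusted p under 0.05, 1 member was higher and 1 lower, the latter being *Atf4*. DESeq2 called 1 higher and 0 lower, and limma voom 2 higher and 0 lower, adding *Asns*. Over all genes DESeq2 called 1476 higher and 1019 lower, and limma voom 2142 and 1568 of the same 17998 genes. For counts at an unadjusted p, no share over all genes is given here. The median log2 fold change of the 10 genes was -0.16 (quartiles -0.27 and 0.23), with 4 positive and 6 negative, against a median of -0.01 (quartiles -0.18 and 0.18) over all genes tested. All 10 lay within 2-fold, as did 97.2% of the genes tested. The 4 *Mettl3*-CKO samples lay above the 4 controls for 1 member, *Psat1*, and below them for 0, while over all genes tested 9.77% were separated upward and 7.58% downward.

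**Figure D1:**
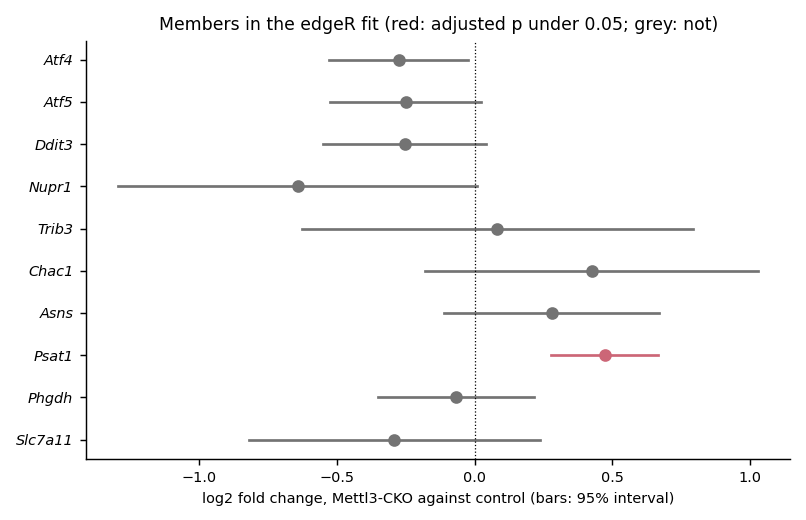
Log2 fold change of each of the 10 genes in Mettl3-CKO against control retinas (x axis), with the 95% interval of the edgeR fit as a bar and the called gene in red. Only the interval of Psat1, 0.28 to 0.67, belongs to a gene with an adjusted p under 0.05, and the interval of Atf4, -0.53 to -0.02, ends just below 0.

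Each sample held between 16227095 and 20281517 counts. A floor of 3 counts equals 0.148 to 0.185 CPM (counts scaled to the library size), and CPM values below include TMM scaling. *Mettl3* itself, the check of the labels, was at 29.3 to 33.8 CPM in controls and 21.1 to 29.6 CPM in *Mettl3*-CKO samples (log2 fold change -0.38, edgeR adjusted p = 0.0602), with reads summed over the whole gene and not only the deleted segment. It was called lower in 3 of 16 alternatives, among them DESeq2 (adjusted p = 0.0320) and limma voom (adjusted p = 0.0139). The retinal progenitor and dividing cell markers summed to 2187 to 2957 CPM in controls and 2987 to 4111 CPM in *Mettl3*-CKO samples (2 of 14 called higher, 0 lower). For rod markers the sums were 3219 to 5063 CPM in controls and 1766 to 3324 CPM in *Mettl3*-CKO samples (0 of 11 called higher, 6 lower). Müller glial markers summed to 2531 to 3358 CPM and 2458 to 2685 CPM (1 of 12 called higher, 2 lower), and no gene of these 3 lists was at 0 counts throughout. Control replicate 1 stood apart from the other controls. Its summed markers were the highest of the 4 for rods (5063 CPM), Müller glia (3358 CPM), microglia (194 CPM) and astrocytes (244 CPM). They were also the highest for the pigment epithelium (138 CPM) and fibroblast (17.0 CPM) lists, and the lowest for progenitors (2187 CPM). For endothelial markers they were narrowly the lowest (563 CPM, against 567 to 659 CPM in the other controls). It had 2.38% of counts on mitochondrial genes, against 1.69% to 1.76% in the other controls. Control replicate 4 held lens marker RNA (3525 CPM against 6.40 to 69.5 CPM in the other controls). In whole tissue, fewer cells of a type and less RNA per cell cannot be told apart.

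Levels of different genes were compared as FPKM, which divides by gene length. Over all 8 samples *Atf4* was the highest of the set at 99.9 ± 15.7 FPKM (SD, n = 8), and *Psat1* followed at 28.3 ± 5.41 FPKM. *Ddit3*, *Phgdh*, *Atf5* and *Asns* formed a middle group with means of 9.45, 8.84, 7.84 and 7.24 FPKM, and the ranges of neighbours in that order overlapped. *Chac1* averaged 1.01 FPKM, *Nupr1* 0.495 FPKM, *Trib3* 0.451 FPKM and *Slc7a11* 0.162 FPKM. The ranges over samples did not overlap between *Atf4* and *Psat1*, between *Psat1* and *Ddit3*, between *Asns* and *Chac1*, or between *Trib3* and *Slc7a11*. *Trib3*, *Nupr1*, *Chac1* and *Slc7a11* thus rested on few reads: their counts per sample were 10 to 24, 16 to 35, 15 to 45 and 23 to 53, which widens the intervals of their fold changes.

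In GRCm38 the 10 genes lie on 7 chromosomes, and all are protein coding. The factor genes are *Atf4* at chr15:80255184-80257541 on the plus strand, *Atf5* at chr7:44812256-44816658 on the minus strand and *Ddit3* at chr10:127290774-127296288 on the plus strand. *Nupr1* lies at chr7:126623249-126630861 and *Trib3* at chr2:152337422-152344032, both on the minus strand, and *Chac1* at chr2:119351229-119354381 on the plus strand. The minus strand holds the amino acid synthesis enzymes and the transporter, *Asns* at chr6:7675169-7693254, *Psat1* at chr19:15904678-15947337, *Phgdh* at chr3:98313170-98339990 and *Slc7a11* at chr3:49892526-50443614. Whether the counting used strand is not given in the sources used here. Reads of *Atf5*, *Ddit3*, *Psat1* and *Slc7a11*, each overlapped by another annotated gene, are less certain than those of the other 6. The genes over *Atf5* and *Psat1* lie on the opposite strand only. *Ddit3* and *Slc7a11* also have overlapping entries on their own strand, which use of strand would not separate. The *Ddit3* entry used held all 2344 *Ddit3* counts, and the shorter entry inside it held 0.

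Short pieces of the promoters of these genes are shown because ATF4 with a C/EBP partner binds a composite element whose core reads TGATGNAA. RefSeq windows from 250 bases before to 50 after each annotated start (GRCm38.p6) were found for all 10 genes, 12 windows in all. The element was searched on both strands. It was present in 3.97% of 32851 windows and in 4.51% of 27025 genes. Within the set it was found in *Chac1*, *Trib3*, *Slc7a11*, *Asns* and *Nupr1*. A related form, TGNTGCAAT, was added after the sequences had been seen and was present in 0.673% of windows, among them those of *Psat1*, *Trib3* and *Nupr1*. In *Nupr1* both patterns match the same bases. Each line below is read on the gene's strand, with the matched letters in capitals, and a match written in the reverse direction lies on the other strand.
Psat1: cgcgggtggcTGGTGCAATcccctgctct
Trib3: gggtcacagaTGGTGCAATcccgggccgc
Asns: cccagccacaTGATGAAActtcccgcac
Slc7a11: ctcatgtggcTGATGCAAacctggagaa
Chac1: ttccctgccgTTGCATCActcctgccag
Nupr1: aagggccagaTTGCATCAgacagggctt

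These pieces lie at chr19:15925177-15925205, chr2:152344075-152344103, chr6:7693215-7693242, chr3:50443662-50443689, chr2:119351039-119351066 and chr7:126625563-126625590, in the order shown. Counting the first transcribed base as 0, the capitals begin at -136 in *Psat1*, -33 in *Trib3*, -23 in *Asns*, -66 in *Slc7a11*, -193 in *Chac1* and -110 in *Nupr1*. The RefSeq starts need not coincide with the ends of the gene spans given above. Neither pattern was in the windows of *Atf4*, *Atf5*, *Ddit3* or *Phgdh*, which says only that these letters are absent there. The matched letters of *Psat1* and *Trib3* are the same.

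The transcription factors of the set were lower on average in *Mettl3*-CKO retinas without passing the test. *Atf4*, the factor at the centre of the response, was at 325.6, 256.7, 232.8 and 220.7 CPM in control replicates 1 to 4. In *Mettl3*-CKO replicates 1 to 4 it was at 197.3, 213.4, 236.8 and 208.0 CPM. *Mettl3*-CKO replicate 3 lay among the controls and the other 3 lay below every control, while control replicate 1 was the highest of all 8 samples. The log2 fold change was -0.28 (standard error 0.12, edgeR adjusted p = 0.161), with group means of 259 ± 46.9 and 214 ± 16.7 CPM (SD, n = 4) and an exact permutation p of 0.0857 (two-sided). The smallest p that 4 against 4 samples allow in that exact test is 0.0286. Without control replicate 1 the log2 fold change of *Atf4* was -0.15.

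*Atf5*, a close relative of ATF4 that is also translated under stress, was at 17.1, 17.0, 17.4 and 16.5 CPM in the controls, the tightest group in the set. Its levels in *Mettl3*-CKO replicates 1 to 4 were 13.3, 17.3, 15.0 and 11.7 CPM. Replicate 2 lay within the control range and the other 3 below it, with a log2 fold change of -0.25 (standard error 0.13, edgeR adjusted p = 0.247). *Ddit3* encodes CHOP, which acts late in the response and favours cell death. It was at 18.2, 20.3, 15.999 and 16.07 CPM in controls and at 16.5, 13.4, 17.2 and 12.2 CPM in *Mettl3*-CKO samples. *Mettl3*-CKO replicates 2 and 4 lay below every control and the other 2 did not, and the log2 fold change was -0.25 (standard error 0.14, edgeR adjusted p = 0.278). *Nupr1*, a small chromatin-associated stress protein, had the most negative log2 fold change of the set, -0.64, with a 95% interval of -1.29 to 0.01 and an edgeR adjusted p of 0.211. It was at 1.12, 1.16, 1.68 and 2.12 CPM in controls and at 0.995, 1.22, 0.903 and 0.782 CPM in *Mettl3*-CKO samples. *Mettl3*-CKO replicate 2 lay above controls 1 and 2, and the other 3 lay below every control.

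The pseudokinase TRIB3, a target of ATF4 and CHOP that in turn restrains ATF4, and CHAC1, which breaks down glutathione, are among the genes most used to read the response. *Trib3* was at 0.963, 1.16, 0.944 and 0.665 CPM in controls and at 1.33, 0.580, 1.12 and 0.928 CPM in *Mettl3*-CKO samples. The *Mettl3*-CKO values spanned the whole control range, and the log2 fold change of 0.08 had an interval of -0.63 to 0.79. Its sign turned when control replicate 4 (-0.05) or *Mettl3*-CKO replicate 1 (-0.08) was left out. *Chac1* was at 1.77, 1.47, 1.52 and 0.906 CPM in controls and at 2.38, 1.51, 1.54 and 2.20 CPM in *Mettl3*-CKO samples. *Mettl3*-CKO replicates 1 and 4 lay above every control and the other 2 within the control range. The log2 fold change of *Chac1* was 0.42 (interval -0.18 to 1.03, edgeR adjusted p = 0.390). These 2 intervals include no change, and they reach up to 1.73-fold for *Trib3* and 2.04-fold for *Chac1*.

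**Figure D2:**
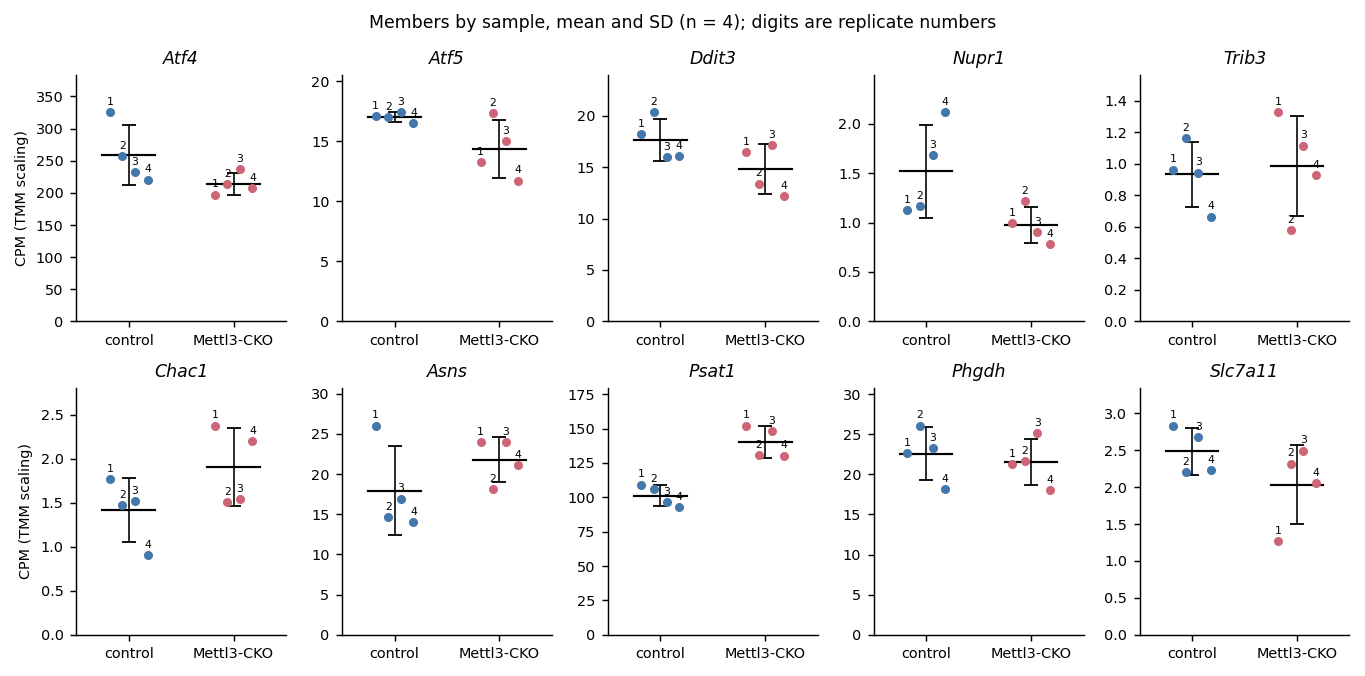
Level of each gene in each sample as CPM after TMM scaling (y axes, linear from 0), with the replicate number beside each point and the mean and SD of each group (n = 4). The 4 Mettl3-CKO values of Psat1, 130 to 152 CPM, lie above the 4 control values of 92.9 to 109 CPM, and in the other 9 panels the groups overlap.

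Among the amino acid enzymes the members differed in direction. *Psat1*, the aminotransferase of the middle step of serine synthesis, was at 109, 106, 96.4 and 92.9 CPM in control replicates 1 to 4. In *Mettl3*-CKO replicates 1 to 4 it was at 152, 131, 148 and 130 CPM. Every *Mettl3*-CKO sample lay above every control. Control and *Mettl3*-CKO means were 101 ± 7.81 and 140 ± 11.4 CPM (SD, n = 4). The log2 fold change was 0.47 (standard error 0.09, edgeR adjusted p = 0.00684). The exact permutation p was 0.0286, the smallest possible, which follows from that separation and adds nothing to it. Of all genes tested, 9.77% were separated upward and 7.58% downward. *Psat1* was called under each of 16 alternatives that refit or leave out samples, with log2 fold changes from 0.43 to 0.51 and adjusted p from 5.82e-05 to 0.0334. The progenitor markers given above were also higher on average in the *Mettl3*-CKO samples and the rod markers lower, and their part in the level of *Psat1* was not tested.

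*Phgdh*, the enzyme of the first step and the one that commits carbon to serine, was at 22.7, 26.1, 23.3 and 18.1 CPM in controls and at 21.2, 21.6, 25.2 and 18.1 CPM in *Mettl3*-CKO samples. The groups overlapped over nearly their whole ranges, with a log2 fold change of -0.07 (interval -0.35 to 0.22, edgeR adjusted p = 0.811). Within a sample, the ratio of *Psat1* to *Phgdh* in FPKM was 2.82, 2.38, 2.42 and 2.99 in controls and 4.19, 3.53, 3.43 and 4.21 in *Mettl3*-CKO samples. The groups of ratios did not overlap. *Psat1* to *Psph*, the enzyme of the last step, was 3.89 to 5.35 in controls and 6.23 to 7.89 in *Mettl3*-CKO samples, and *Psat1* to *Atf4* was 0.186 to 0.233 and 0.340 to 0.428. The 3 ratios were chosen after the level of *Psat1* had been seen, so they describe its rise relative to these genes and were not tested.

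**Figure D3:**
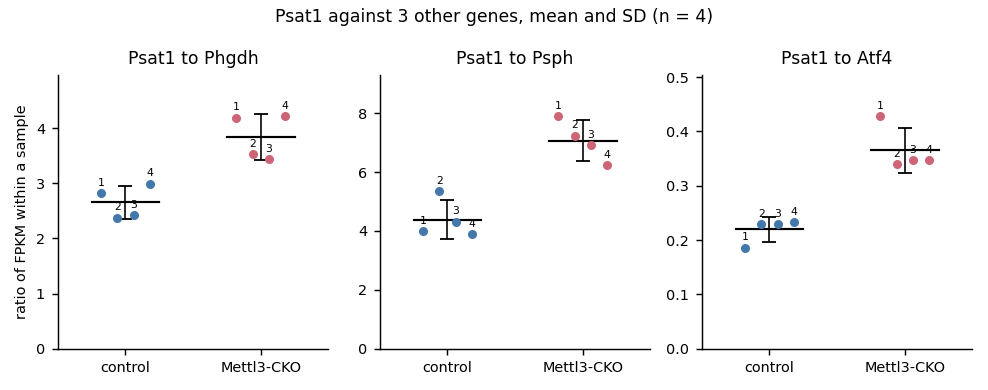
Ratio of Psat1 to Phgdh, to Psph and to Atf4 in FPKM within each sample (y axes, linear from 0), with replicate numbers and the mean and SD of each group (n = 4). The mean ratio to Phgdh was 2.65 in controls and 3.84 in Mettl3-CKO samples, that to Psph 4.39 and 7.07, and that to Atf4 0.220 and 0.365.

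*Asns*, which makes asparagine from aspartate and glutamine, was at 26.1, 14.7, 16.9 and 14.02 CPM in controls. Its levels in *Mettl3*-CKO replicates 1 to 4 were 23.9, 18.2, 24.0 and 21.1 CPM. Control replicate 1 was the highest of all 8 samples, while the other 3 controls lay below every *Mettl3*-CKO sample. With all samples the log2 fold change was 0.28 (standard error 0.18, edgeR adjusted p = 0.377). Without control replicate 1 it was 0.52 with an adjusted p of 0.0103, and limma voom, which gives less weight to samples that stand apart, had 0.49 with an adjusted p of 0.0119. With controls 1 and 4 both left out it was 0.46 with an adjusted p of 0.0521. Whether *Asns* counts as higher thus depends on the samples and tool used, and most on control replicate 1. That control had the highest rod, Müller glial, microglial, astrocyte and mitochondrial RNA of the 4, and their part in the level of *Asns* was not tested.

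*Slc7a11*, the light chain of the exchanger that brings in cystine for glutathione, was at 2.84, 2.20, 2.68 and 2.24 CPM in controls and at 1.27, 2.32, 2.50 and 2.05 CPM in *Mettl3*-CKO samples. *Mettl3*-CKO replicate 1 was the lowest of all 8, replicate 4 also lay below the controls, and the other 2 lay within their range. The log2 fold change was -0.29 (interval -0.82 to 0.24, edgeR adjusted p = 0.514). Leaving out *Mettl3*-CKO replicate 1 brought it to -0.12.

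Single samples did not run high or low over the whole set. Control replicate 1 was the highest control for *Atf4*, *Psat1*, *Asns*, *Chac1* and *Slc7a11* but the lowest for *Nupr1*. *Mettl3*-CKO replicate 1 was the highest of its group for *Psat1*, *Chac1* and *Trib3* and the lowest for *Atf4* and *Slc7a11*. Summed over the 10 genes, the level was 384 to 526 CPM in controls and 407 to 472 CPM in *Mettl3*-CKO samples, a sum in which *Atf4* and *Psat1* weigh most.

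**Figure D4:**
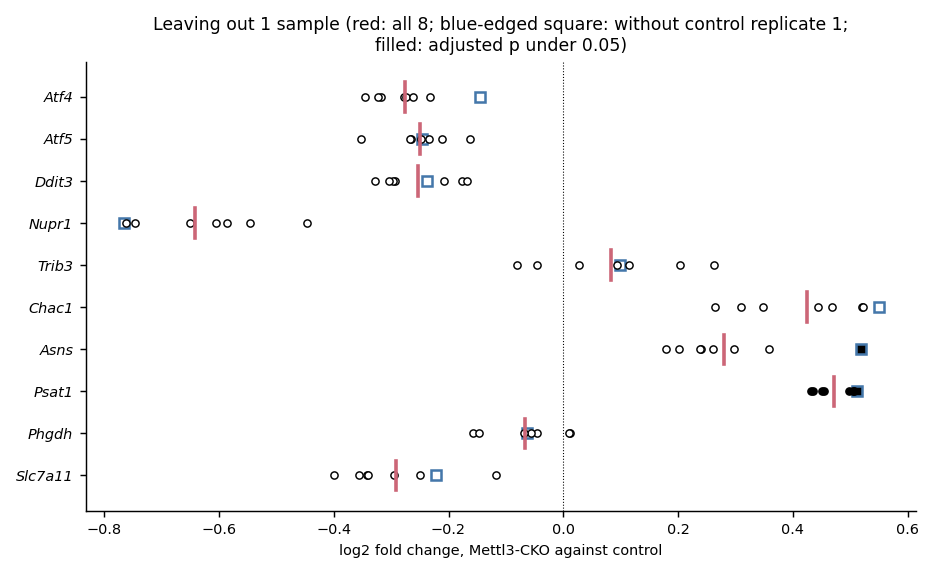
Log2 fold change of each gene with all 8 samples (red bar) and with each sample left out in turn (points, filled where the adjusted p was under 0.05, blue-edged square without control replicate 1). Psat1 was filled in each case, between 0.43 and 0.51, Asns was filled only without control replicate 1, at 0.52, and Trib3 and Phgdh had points on each side of 0.

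The genes upstream of ATF4 were read from a list of 19, which held the eIF2 kinases, the subunits of eIF2 and of its exchange factor eIF2B, the phosphatase subunits that end the response, and *Gcn1l1*, *Impact*, *Dele1*, *Oma1* and *Eif2a*, most of which act on or through the kinases. Of these, 0 were called higher and 0 lower by edgeR, against 1 and 1 at an unadjusted p under 0.05, 0 and 0 by DESeq2 and 2 and 1 by limma voom. The median log2 fold change was 0.02. The pair at an unadjusted p under 0.05 were *Oma1*, a mitochondrial protease, at 0.49 and *Eif2b4*, a subunit of eIF2B, at -0.28, with edgeR adjusted p of 0.124 and 0.0779. *Eif2s3x*, a subunit of eIF2, had a log2 fold change of -0.03, and *Eif2b2*, a subunit of its exchange factor, 0.04, with edgeR adjusted p of 0.922 and 0.839. Among 10 tested bZIP and stress factors that act with ATF4, 1 was called higher (10%, close to the 6.49% of all genes tested) and 0 lower. This was *Cebpg*, a C/EBP protein that pairs with ATF4, at 34.4 ± 5.08 CPM in controls and 47.9 ± 6.15 CPM in *Mettl3*-CKO samples (SD, n = 4, log2 fold change 0.48, edgeR adjusted p = 0.0284). Every *Mettl3*-CKO sample lay above every control for *Cebpg*, as for 9.77% of all genes tested. *Cebpg* was picked by its call in the same samples, so this separation is no further evidence. The call was lost when any of 4 samples was left out, controls 2 and 3 and *Mettl3*-CKO replicates 1 and 2. *Nfe2l1* and *Creb3* of the same list had log2 fold changes of 0.09 and -0.22 and were not called.

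Beyond the members, 23 other described targets of ATF4 or CHOP were tested, of which 4 were called higher (17.4%) and 2 lower (8.70%). Of all genes tested, 6.49% were called higher and 4.05% lower. The list median log2 fold change was 0.02, with 5 higher and 6 lower at an unadjusted p under 0.05. DESeq2 called 4 higher and 3 lower, and limma voom 5 and 4. The groups did not overlap for 4 targets upward and 4 downward, against 9.77% and 7.58% of all genes tested. *Eif4ebp1*, which encodes a repressor of cap-dependent translation, rose from 5.31 ± 0.414 to 9.94 ± 1.19 CPM (SD, n = 4, log2 fold change 0.90, edgeR adjusted p = 0.00229). *Tnfrsf10b*, a death receptor gene, rose from 1.32 ± 0.466 to 2.76 ± 0.505 CPM (log2 fold change 1.07, edgeR adjusted p = 0.035). *Sesn2*, a leucine sensor that restrains mTORC1, rose with a log2 fold change of 0.72 (edgeR adjusted p = 0.0157), and *Pck2*, the mitochondrial form of PEPCK, with 0.60 (edgeR adjusted p = 0.028). *Ndrg1*, a gene that also responds to hypoxia, fell from 757 ± 33.0 to 455 ± 84.4 CPM (log2 fold change -0.73, edgeR adjusted p = 0.00288). *Vegfa*, the angiogenic factor, was called lower at -0.33 with an edgeR adjusted p of 0.0497. The most abundant targets that were not called, *Ddit4* and *Sqstm1*, had log2 fold changes of 0.02 and -0.41. For *Sqstm1* every *Mettl3*-CKO sample lay below every control, with an edgeR adjusted p of 0.0521. *Eif4ebp1*, *Sesn2* and *Ndrg1* were called whichever of the 8 samples was left out. *Pck2* lost its call without control replicate 2 or *Mettl3*-CKO replicate 1, 2 or 4. *Tnfrsf10b* lost it in 6 of 8 cases (all but controls 1 and 4) and *Vegfa* in 7 of 8 (all but control 1). Some of these genes answer to other factors too, *Sesn2* and *Tnfrsf10b* to p53, for example.

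The list of serine, glycine and folate-linked enzymes, which also held enzymes of proline, glutamine and aspartate metabolism, had the largest share called higher of the lists. It had 4 of 15 called higher (26.7%, against 6.49% of all genes tested), 0 lower and a median log2 fold change of 0.04. Of these 4, *Glul* and *Aldh18a1* are not enzymes of the serine or folate pathways. The lists were chosen with earlier results of these data known. *Mthfd1l*, the mitochondrial synthetase that releases formate, rose from 14.3 ± 1.09 to 20.8 ± 2.98 CPM (SD, n = 4, log2 fold change 0.54, edgeR adjusted p = 0.0163). *Shmt1*, the cytosolic serine hydroxymethyltransferase, rose from 18.3 ± 1.06 to 26.2 ± 2.96 CPM (log2 fold change 0.52, edgeR adjusted p = 0.0102). *Glul*, glutamine synthetase, rose from 402 ± 20.5 to 540 ± 41.0 CPM (log2 fold change 0.43, edgeR adjusted p = 0.00865), and it is also on the Müller glial marker list, where 2 of the other markers were called lower. *Aldh18a1*, which starts proline synthesis, was the fourth, at 0.39 with an edgeR adjusted p of 0.0246. In these 4 genes every *Mettl3*-CKO sample lay above every control, as for *Psat1* and for 9.77% of all genes tested. They were picked by their call in the same samples, so this separation is no further evidence. *Shmt2*, the mitochondrial partner of *Shmt1*, had a log2 fold change of -0.14, *Psph* -0.23 and *Got1* -0.09, and none of these passed the test. *Shmt1* and *Glul* kept their calls whichever sample was left out, *Mthfd1l* lost its own without *Mettl3*-CKO replicate 1, and *Aldh18a1* without any of 4 samples (controls 2 and 4, *Mettl3*-CKO replicates 1 and 2).

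In the remaining lists, of 12 amino acid transporters 0 were called higher and 1 lower (8.33%, against 4.05% of all genes tested). This was the glycine transporter gene *Slc6a9*, which fell from 85.8 ± 5.93 to 49.1 ± 7.43 CPM (SD, n = 4, log2 fold change -0.80, edgeR adjusted p = 0.00104). It kept its call whichever sample was left out. *Slc3a2*, the heavy chain that partners *Slc7a11*, had a log2 fold change of 0.10 and *Slc38a2*, a glutamine transporter induced by amino acid shortage, 0.08. Of 21 cytosolic tRNA synthetases 0 were called higher and 1 lower (4.76%, against 4.05% of all genes tested), with a list median of -0.09. The gene called was *Farsa* at -0.34 (edgeR adjusted p = 0.0169, lost without control replicate 2 or *Mettl3*-CKO replicate 1 or 4). *Nars* and *Gars*, the most abundant of those not called, had log2 fold changes of -0.07 and -0.01. Targets of ATF6 and XBP1 in the endoplasmic reticulum numbered 25, of which 1 was called higher, *Manf* at 0.37 (edgeR adjusted p = 0.0352), and 1 lower, *Atf6* itself at -0.32 (edgeR adjusted p = 0.0405). Each call is 4% of the list, against 6.49% higher and 4.05% lower of all genes tested. *Manf* lost its call in 6 of 8 cases and *Atf6* in 7 of 8 when a sample was left out, *Mettl3*-CKO replicate 1 among them for each. The abundant chaperones *Hsp90b1* and *Calr* had log2 fold changes of 0.00 and -0.16. Of 10 mitochondrial chaperones and proteases 0 were called in each direction by edgeR, against 1 higher and 0 lower at an unadjusted p under 0.05, 1 and 0 by DESeq2 and 2 and 0 by limma voom, with *Hspd1* at 0.37 and *Hspa9* at 0.05. Of 11 tested glutathione and antioxidant genes 1 was called higher (9.09%) and 2 lower (18.2%, against 4.05% of all genes tested). *Gclc*, the enzyme that limits glutathione synthesis, rose by 0.31, *Gss*, the next enzyme, fell by 0.36 and *Hmox1*, heme oxygenase, fell by 1.39 on the log2 scale (edgeR adjusted p = 0.0245, 0.0483 and 0.0167). Of these 3, *Hmox1* lost its call only without *Mettl3*-CKO replicate 1, *Gclc* in 6 of 8 cases and *Gss* in 7 of 8. *Gpx4*, which protects membrane lipids from peroxides, and *G6pdx*, which supplies NADPH, were not called, at -0.13 and -0.11.

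**Figure D5:**
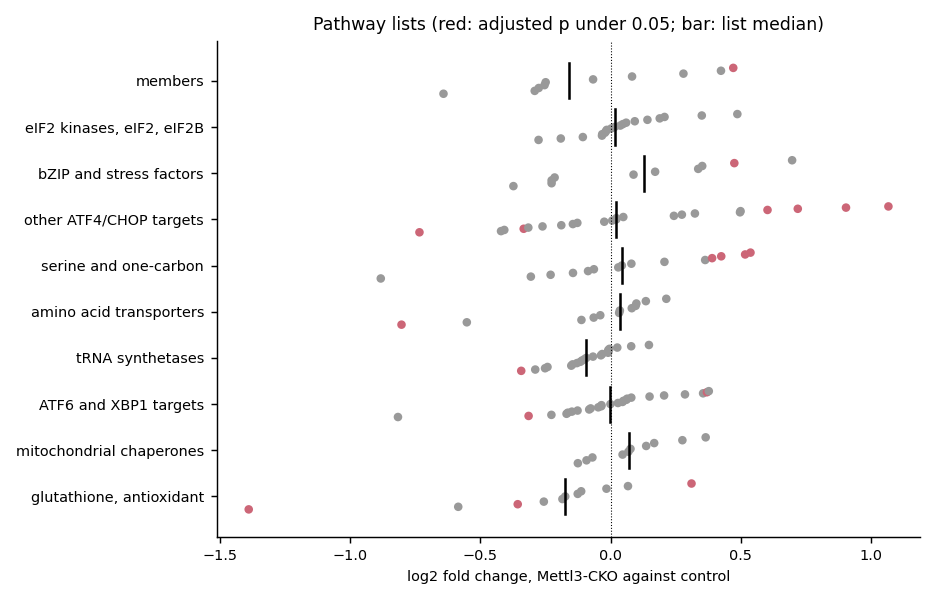
Log2 fold change (x axis) of each tested gene in the members and in 9 lists of the pathway (rows), with called genes in red and the list median as a bar. Medians lie between -0.17 (glutathione and antioxidant genes, also near that of the members, -0.16) and 0.13 (bZIP and stress factors). The red points right of 0 are most numerous, 4 each, in the serine and one-carbon list and among the other ATF4 or CHOP targets.

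Taking these 9 lists together, each gene once and without the members, 11 of 146 tested genes (7.53%) were called higher and 7 (4.79%) lower, against 6.49% and 4.05% of all genes tested, and the median log2 fold change was -0.01. DESeq2 called 12 higher and 9 lower and limma voom 22 and 14. Of the 18 calls, 6 held whichever sample was left out, 4 of them higher (*Eif4ebp1*, *Sesn2*, *Shmt1* and *Glul*) and 2 lower (*Ndrg1* and *Slc6a9*). The other 12 were each lost without *Mettl3*-CKO replicate 1, and 0 of the 18 were lost without control replicate 1. Calls over all genes moved likewise, from 1168 higher and 729 lower to 509 and 185 without *Mettl3*-CKO replicate 1. Without control replicate 1 they were 1882 and 1289. *Psat1* held its call whichever of the 8 samples was left out, and 0 members were called lower in any of those fits.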

How the data were processed

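RNA-seq libraries of whole retina from 4 control and 4 *Mettl3*-CKO samples were analysed. According to the methods and the submitters' processing notes, the authors aligned paired-end reads (HISAT2, GRCm38) and assigned them to genes by featureCounts, and the deposited values are the raw counts. The annotation release and the use of strand in counting are not given in the sources used here. Groups were taken from the sample labels.

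Genes were kept by edgeR's filterByExpr (17998 genes), scaled by TMM and tested on the counts with edgeR's quasi-likelihood test over all 8 samples (R 4.3.3, edgeR 4.0.16), with group as the only term, Benjamini-Hochberg adjustment over all tested genes and a threshold of 0.05. The biological coefficient of variation was 15.0%. FPKM was computed from the counts, the deposited gene lengths and the total counts. Intervals are 95%, and 3 counts were taken as the floor, which covers counting error only. Exact permutation tests used log2 CPM with a prior count of 2. No 2 samples agreed within sampling noise (lowest chi-square 5.01 per gene). The fit was tested on simulated data.

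The members and lists were chosen with earlier results of these data known. Besides the members and *Mettl3*, genes are named by rule: up to 3 called higher, up to 3 called lower and the 2 of highest FPKM not called in each pathway list. *Aldh18a1*, *Pck2*, *Psph*, *Gcn1l1*, *Impact*, *Dele1*, *Oma1*, *Eif2a*, *Eif2b4* and the 6 untested genes fall outside it and were added after their values had been seen. Alternatives were DESeq2 1.42.0, limma 3.58.1 (voom with sample quality weights), other scalings, filters and thresholds, a replicate block and samples left out. Promoter sequences are from RefSeq (GRCm38.p6). The study's other assays were not analysed here.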

Additional observations from a re-analysis of the deposited data

Results flagged for a closer look

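Among 110 groups of 4 values checked (the log2 CPM of the members, the named pathway genes and *Mettl3*, and the summed marker lists), 3 held a sample whose gap to the nearest of the others was past Dixon's 95% critical value, against 5.5 that chance gives at 1 in 20. *Shmt2* was at 6.97 log2 CPM in control replicate 1, against 7.29 to 7.35 in the other controls. *Hspa9* was at 8.11 log2 CPM in the same sample, against 7.78 to 7.83. The lens markers summed to 3525 CPM in control replicate 4, against 6.40 to 69.5 CPM. No member was among them.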

How the results depend on the processing

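Of 160 values of the 10 members under the alternatives, 153 kept their direction and their side of the threshold. *Asns* passed it under limma voom (0.49) and without control replicate 1 (0.52), which brought the members called higher to 2, and with each sample left out in turn this count was 1 to 2. The members called lower were 0 throughout. *Trib3* turned negative without control replicate 4 (-0.046), without *Mettl3*-CKO replicate 1 (-0.081) and without controls 1 and 4 together (-0.086), and *Phgdh* turned positive without control replicate 2 (0.012) or *Mettl3*-CKO replicate 4 (0.0098). The cause was not tested. With a sample left out, *Trib3* lay between -0.081 and 0.26 and *Phgdh* between -0.16 and 0.012.

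Over all genes, limma voom called 2142 higher and 1568 lower, and a threshold of 0.01 left 439 and 147, against 1168 and 729. With each sample left out, 509 to 1882 genes were called higher and 185 to 1289 lower, the fewest without *Mettl3*-CKO replicate 1 and the most without control replicate 1. Of the pathway genes beside the members, limma voom called 22 higher and 14 lower, a threshold of 0.01 left 2 and 2, and leaving out samples gave 4 to 20 and 2 to 12.

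Both groups share replicate numbers in the labels. Correlations of the deviations of same-numbered samples were mixed (-0.11, 0.22, -0.11 and 0.25). The highest of all cross-group pairs was control replicate 1 with *Mettl3*-CKO replicate 3 (0.26). The numbers were not taken to pair the samples, which these values do not settle. With a replicate block the members called were 1 higher and 0 lower, all genes 1198 and 660, and pathway genes 11 and 6. Depth limits *Trib3*, *Chac1*, *Nupr1* and *Slc7a11*, with 10 to 53 counts per sample.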

Other observations

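Of the 152 pathway genes beside the members, 6 had too few counts to be tested. *Gdf15*, a secreted stress signal and one of the targets most used to read the response in blood, had 4, 3, 8 and 7 counts in control replicates 1 to 4 and 7, 3, 3 and 4 in *Mettl3*-CKO replicates 1 to 4. *Fgf21*, a hormone gene switched on by ATF4 in liver, had 0 counts in every control and in *Mettl3*-CKO replicates 1 and 4, and 1 count in each of the other 2. *Batf2*, *Adm2*, *Cdsn* and *Osgin1* had at most 4, 2, 11 and 8 counts in a sample. No difference was tested in these genes.

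Marker lists of other cell types were summed as values to set beside the members. Microglial markers lay between 63.2 and 194 CPM in controls and between 109 and 156 CPM in *Mettl3*-CKO samples, with 0 of 10 called by edgeR in each direction (1 higher and 0 lower at an unadjusted p under 0.05, 0 and 0 by DESeq2, 9 and 0 by limma voom). Of the endothelial markers 7 of 9 tested were called lower (77.8%, against 4.05% of all genes tested), with a median log2 fold change of -1.31. Their sums were 563 to 659 CPM in controls and 542 to 640 CPM in *Mettl3*-CKO samples, so the sums do not show the fall of most of these genes. Of the astrocyte markers 1 of 6 was called higher and 2 lower (sums of 115 to 244 and 85.7 to 120 CPM), and of the pigment epithelium and melanocyte markers 1 of 9 higher and 4 lower (sums of 99.98 to 138 and 74.7 to 101 CPM). Fibroblast and scleral markers had 1 of 4 called lower, lens markers 4 of 7 and erythrocyte markers 2 of 3, and 0 higher in these 3 lists by any of the tools run. Lens marker RNA was mostly in control replicate 4, as given above, and DESeq2 and limma voom called 0 of the lens markers. Their part in the levels of the members was not tested.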
